A study of Homo sapiens with 30 samples.

Results

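The genes described here are the Eph receptors and ephrins, the Slits and Robo receptors, the netrins and their receptors, and the plexins and the class 4 to 7 semaphorins, measured while human embryonic stem cells differentiated in culture. They were chosen by name. A gene belonged if its symbol in the array annotation started with EPHA, EPHB, EFNA, EFNB, PLXN, ROBO, UNC5, NTNG or SEMA4 to SEMA7, or was SLIT1 to SLIT3, NTN1, NTN4, DCC or NEO1. The rule found 66 of the 18774 genes named on the array, and it used no measured value. Of these, 51 had a probe detected on at least 3 of 30 arrays and were tested, and 15 were below that filter. The rule also took in UNC50, which shares only the prefix and is no guidance receptor, UNC5CL, a relative of the UNC5 receptors, and 4 antisense RNAs, of which SEMA6A-AS1 was tested.

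The cells were H9, an established human embryonic stem cell line, and total RNA was measured on 30 Illumina bead arrays in 10 groups of 3. Arrays of day 1 and day 3 preceded a split into an NSB arm and a PIP arm, each measured at days 5, 7, 9 and 11. The labels do not spell out either name and give no growth or treatment protocol. The labels describe the PIP cells as in placode differentiation, and, as background, NSB stands for neural induction with Noggin and the receptor blocker SB431542, and PIP for a placode induction protocol. All groups share 1 cell line, replicates are labelled as biological, and the arrays from days 3 and 5 have 2 sample codes each, with no word on pooling.

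As background, these proteins steer growing axons and migrating cells and sharpen tissue borders. Eph receptors are tyrosine kinases that bind membrane-bound ephrins on neighbouring cells and often drive the contacting cells apart. Secreted Slits repel through Robo receptors, netrins attract through DCC and neogenin (NEO1) and repel through UNC5 receptors, and semaphorins act through plexins. In the embryonic head such signals help to keep neural plate, neural crest and placodes apart and later guide the sensory axons that placodes give rise to.

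Levels below are normalised log2 intensities of 1 probe per gene on each array, and differences are log2 differences ± the standard error (SE) of a limma fit over all 30 arrays. A gene rose or fell if its adjusted p, after Benjamini-Hochberg correction over 13488 genes, was under 0.05. A fold is written as at least N-fold where none of the dimmer group's arrays detected the probe, against the detection limit of those arrays, and the log2 difference beside it is the fitted one. Levels of different genes were not compared, since each probe has its own brightness.

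Median unnormalised intensity per array was 45.4 to 74.7, and 34.0% to 37.7% of the 48701 probes were detected. Over both arms, day 9 differed from the average of its neighbouring days, 7 and 11, in 8118 of 13488 genes (60.2%), and by at least 1 on the log2 scale in 3.71%. No like contrast was run for day 5 or day 7, so these shares do not show day 9 to be unusual. The day 9 values are given apart, and averages with and without them. Markers of the starting and end states followed the labelled course. POU5F1, the pluripotency factor OCT4, had a mean level of 12.26 at day 1, 11.27 at day 3, 7.00 in NSB at day 11 and 6.82 in PIP at day 11. All 7 neural ectoderm markers rose from day 3 to day 11 in each arm, among them PAX6, with means of 4.70 at day 3, 10.28 in NSB and 10.31 in PIP. All 7 measured markers of non-neural ectoderm and placode were higher in PIP than in NSB at day 11, among them TFAP2A (11.28 against 5.92).

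The tested genes covered 10 of 13 Eph receptors, 7 of 8 ephrins, 2 of 3 Slits, 3 of 4 Robo receptors, 3 of 4 netrins, 4 of 6 netrin receptors, 7 of 9 plexins and 12 of 13 semaphorins. Below the filter were DCC, EFNA5, EPHA6, EPHA7, EPHA10, NTN4, PLXNA4, PLXNB3, ROBO4, SEMA7A, SLIT1, UNC5C and the antisense RNAs EPHA5-AS1, PLXNA4-AS2 and SEMA5A-AS1. For 13 of these 15 the probe was not above background on any array. DCC was detected on 2 arrays, both of day 1, and EFNA5 on 1. DCC, the main attractive netrin receptor, and the ligands SLIT1 and NTN4 were thus among the genes whose levels are not given.

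**Figure D1:**
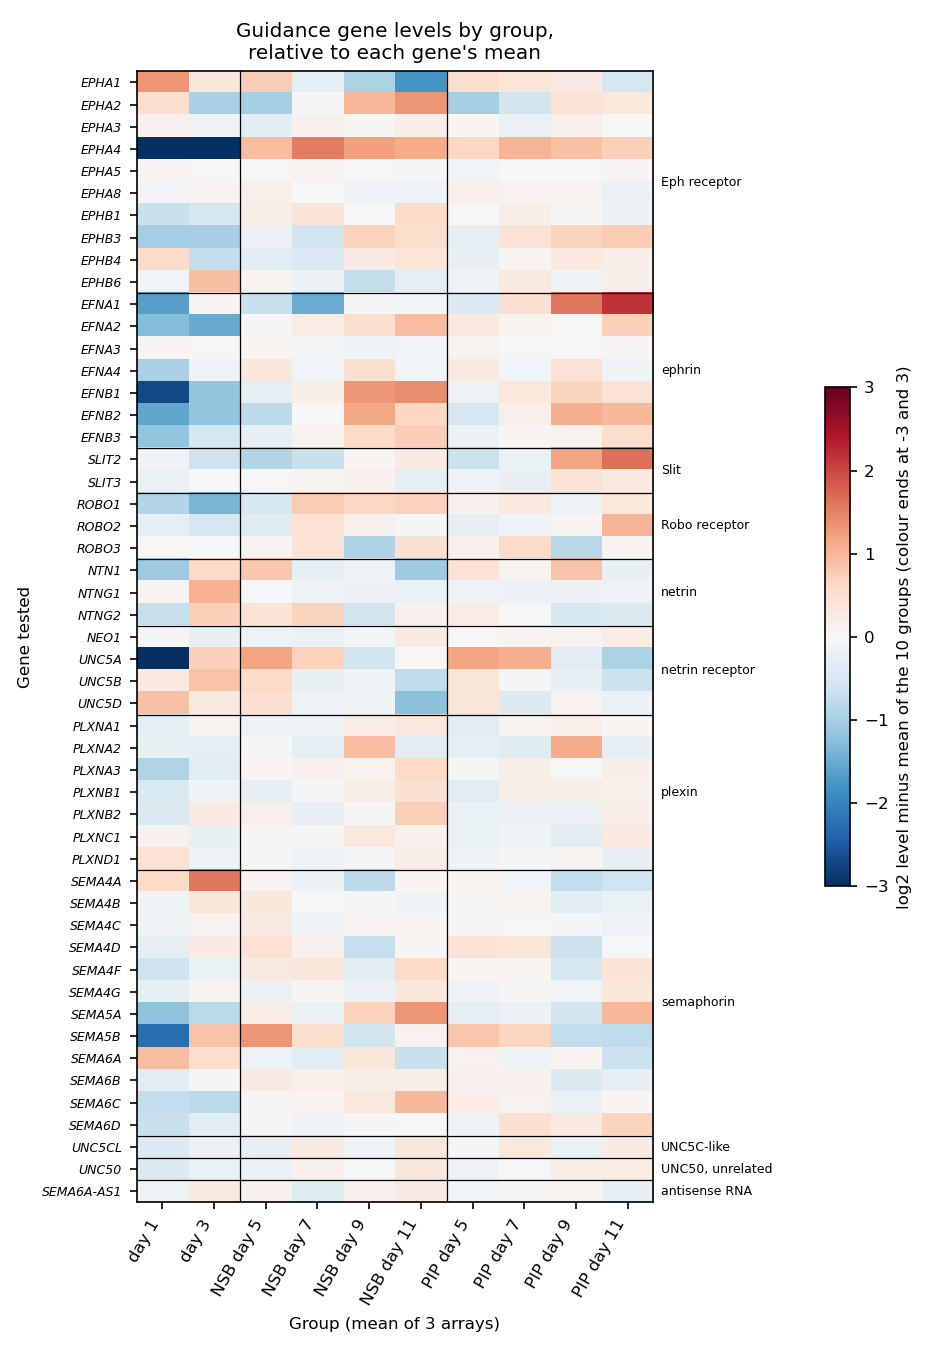
Mean log2 level of each tested gene (rows, grouped by role) in each of the 10 groups (columns, 3 arrays each), minus that gene's mean over the 10 groups; the colour scale ends at -3 and 3. EPHA4 and UNC5A have their lowest values at day 1, and EFNA1 and SLIT2 their highest in PIP at day 11.

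From day 1 to day 3, before the arms were sampled apart, NTN1, NTNG2, 5 of 7 ephrins, UNC5A, SEMA5B, EPHA4 and EPHB6 rose and EPHA1, EPHA2 and EPHB4 fell. Of the 51 genes, 26 rose and 9 fell, or 68.6%, against 54.4% of all genes tested (29% rose and 25.4% fell). By at least 1 on the log2 scale, 8 rose and 2 fell, 19.6% of the genes against 9.03% of all. The median difference was 0.31 over the 51 genes and 0.01 over all genes. Of the called genes 74.3% rose, or 87.5% with arrays scaled to the median of all probes and 61.1% to that of detected probes. The bulk RNA does not tell fewer cells of a type from less RNA per cell, here or below.

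UNC5A, a netrin receptor that mediates repulsion, changed most. It read 5.78, 5.72 and 5.90 at day 1 and 9.51, 9.51 and 9.49 at day 3, a 13-fold rise (3.70 ± 0.12, adjusted p = 6.32e-20). SEMA5B, a transmembrane semaphorin, read 5.93, 6.09 and 6.28 at day 1 and 9.14, 9.19 and 9.29 at day 3, 8.62-fold higher (3.11 ± 0.11). Every day 3 array lay above every day 1 array for both genes. NTN1, the secreted ligand netrin-1, was detected on no day 1 array, where it read 5.18, 5.03 and 4.98, and reached 6.78, 6.76 and 6.71 at day 3, at least 2.80-fold higher (1.69 ± 0.09), while its second probe was detected on 0 arrays. NTNG2, a membrane-anchored netrin-G, went from 4.92, 5.01 and 4.98 to 6.38, 6.38 and 6.33, at least 2.14-fold (1.40 ± 0.10). The groups of NTN1 and NTNG2 did not overlap. NTNG1 was called at least 1.5-fold higher (0.96 ± 0.07), but it passed the filter only through its day 3 arrays, so the filter favoured this direction. Its other probe was detected on 0 arrays.

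Of the 7 ephrins, 5 rose and 0 fell, while EFNA2 (-0.21 ± 0.12) and EFNA3 (-0.05 ± 0.09) did not pass the test. EFNA1, a lipid-anchored ephrin and a preferred ligand of EPHA2, read 5.44, 5.01 and 5.00 at day 1 and 6.74, 6.93 and 6.81 at day 3, 3.20-fold higher (1.68 ± 0.12). EFNB1, a transmembrane ephrin, was detected on no day 1 array (5.05, 4.93 and 4.93) and read 6.45, 6.56 and 6.55 at day 3, at least 2.39-fold higher (1.55 ± 0.10). All day 3 arrays were above all day 1 arrays for both. EFNA4 rose by 0.83 ± 0.09, EFNB3 by 0.67 ± 0.08 on the log2 scale.

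The Eph receptors split. EPHA4, a receptor that binds ephrins of both classes, rose from 5.42, 5.40 and 5.40 to 6.79, 6.97 and 6.92 (1.49 ± 0.09, 2.80-fold). EPHB6, which lacks kinase activity, went from 6.51, 6.52 and 6.87 to 7.64, 7.63 and 7.64 (1.00 ± 0.13, 2.00-fold). Both rose without overlap between the days. EPHA2, an epithelial Eph receptor, went the other way, from 10.30, 10.37 and 10.08 to 8.81, 8.71 and 8.77 (-1.48 ± 0.15, 2.80-fold lower). EPHB4, the receptor of EFNB2, fell from 8.81, 8.75 and 8.81 to 7.49, 7.57 and 7.46 (-1.28 ± 0.14, 2.43-fold lower), and EPHA1 fell 1.97-fold (-0.98 ± 0.08). The other 5 Eph receptors did not pass the test. Of the semaphorins 8 of 12 rose and 1, SEMA6A, fell, but 3 of the rises have limits. SEMA6D (0.34 ± 0.12) was detected on no array of either day, and SEMA5A (0.40 ± 0.15) on 2 arrays of day 3 and none of day 1. Another probe of SEMA4F, detected on 8 arrays of the series, differed by 0.03 ± 0.12 where the tested one differed by 0.42 ± 0.11. Of the plexins 4 of 7 rose and 2 fell, none of them by 1 or more. Another probe of PLXNB2 differed by -0.09 ± 0.10 where the tested one differed by 0.66 ± 0.09.

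**Figure D2:**
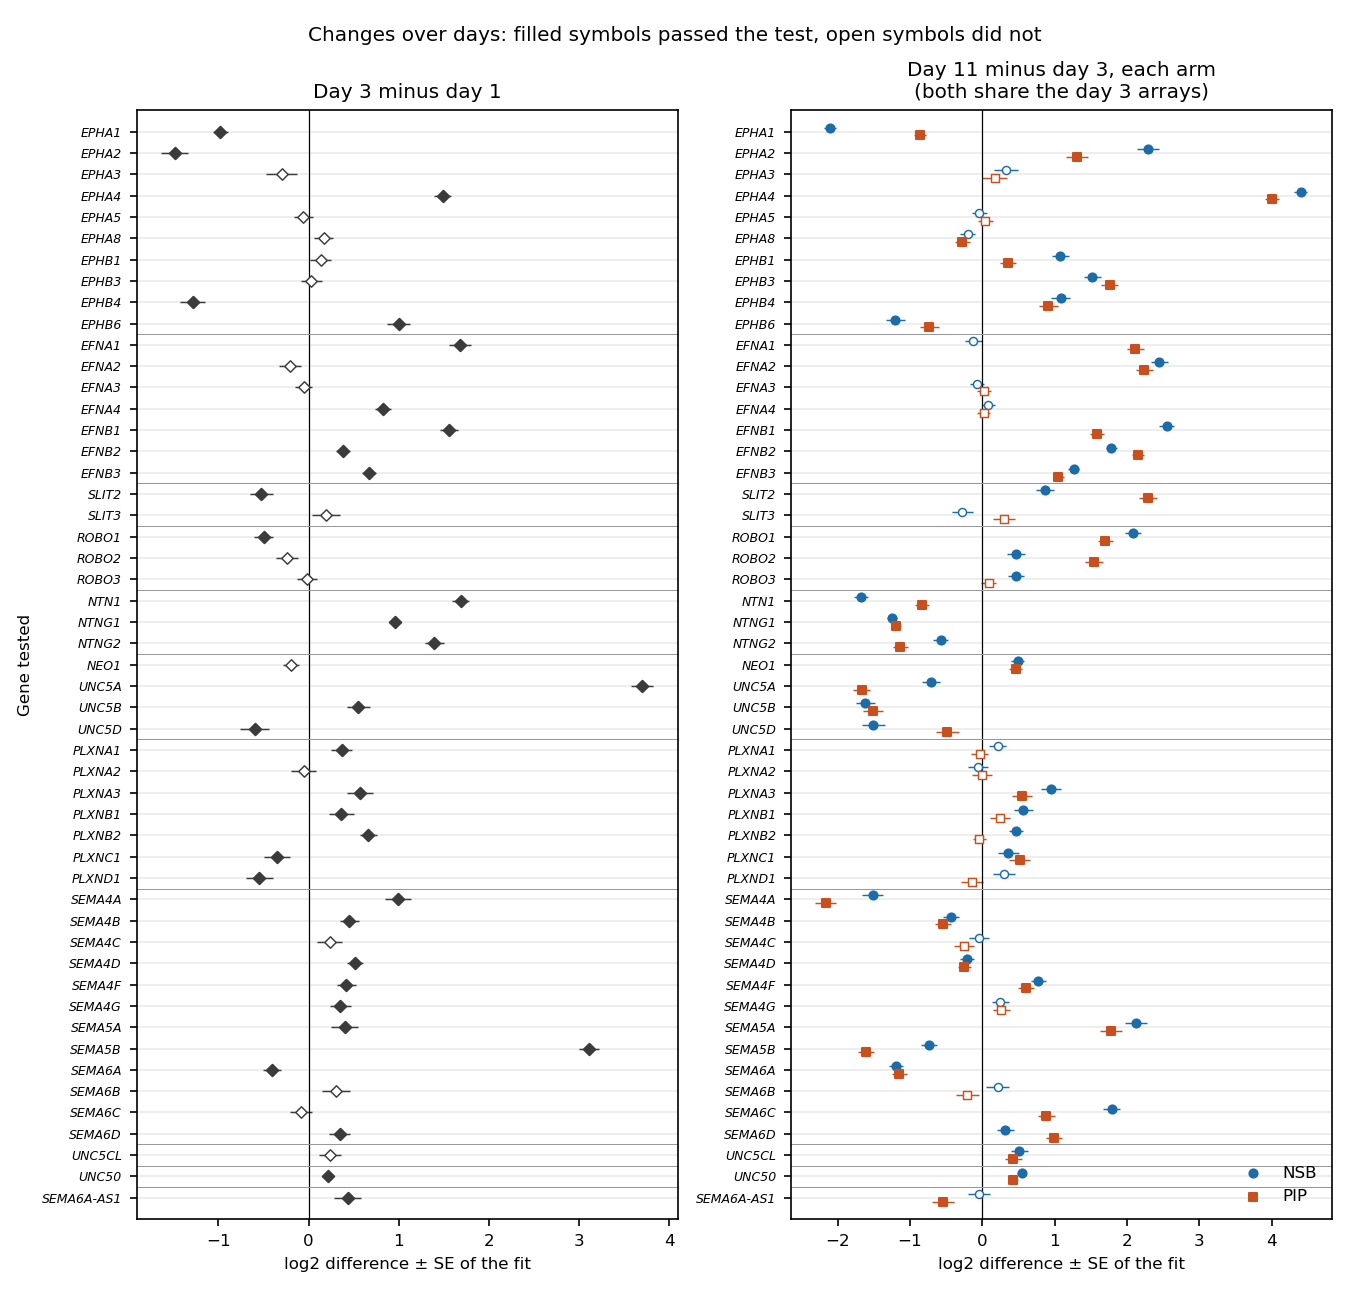
Log2 difference ± SE of the fit for each tested gene, day 3 minus day 1 (left) and day 11 minus day 3 in the NSB and PIP arms (right), 3 arrays per group; filled symbols passed the test at an adjusted p under 0.05. UNC5A and SEMA5B lie farthest right at day 3 and EPHA4 at day 11 in both arms.

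From day 3 to day 11, 5 of 10 Eph receptors rose in each arm, as did 4 of 7 ephrins in NSB and 5 in PIP and all 3 Robo receptors in NSB and 2 in PIP. EPHA1, EPHB6, NTN1, NTNG2 and 3 of 4 netrin receptors fell in both arms. In NSB 24 of the 51 genes rose and 13 fell (72.5%, against 66% of all genes tested, 31.3% up and 34.7% down), and in PIP 22 rose and 15 fell (72.5%, against 62.4%, 30.4% up and 32% down). The background was high in both arms, so the share of genes called was close to that of all genes. By at least 1 on the log2 scale the shares were 39.2% in NSB (12 up, 8 down) against 18% of all genes, and 37.3% in PIP (12 up, 7 down) against 15.7%. Both comparisons use the same day 3 arrays, so their values stand side by side and are not set against each other.

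EPHA4 changed most in each arm. It read 6.79, 6.97 and 6.92 at day 3, 11.33, 11.33 and 11.23 in NSB at day 11 and 11.08, 10.72 and 10.89 in PIP at day 11, 21.1-fold higher in NSB (4.40 ± 0.09) and 16-fold higher in PIP (4.0 ± 0.09). Most of this was there at day 5, when the arrays read 11.07, 10.95 and 11.24 in NSB and 10.71, 10.84 and 10.83 in PIP, and all later arrays stayed far above day 3.

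EPHA2 rose again after its fall, from 8.81, 8.71 and 8.77 at day 3 to 11.27, 10.97 and 10.94 in NSB and 10.20, 10.11 and 9.90 in PIP (2.29 ± 0.15 and 1.30 ± 0.15). EPHB3, a receptor of the B ephrins, was detected on no day 3 array (4.83, 4.77 and 4.87) and read 6.36, 6.28 and 6.39 in NSB and 6.26, 6.90 and 6.60 in PIP, at least 2.31-fold and 2.74-fold higher. Both receptors lay above day 3 on all day 11 arrays. EPHB4 rose by 1.08 ± 0.14 in NSB and by 0.91 ± 0.14 in PIP, and EPHB1 by 1.08 ± 0.12 and 0.35 ± 0.12. EPHA1 fell, from 9.53, 9.56 and 9.46 at day 3 to 7.37, 7.50 and 7.38 in NSB (-2.10 ± 0.08, 4.30-fold lower) and 8.64, 8.53 and 8.78 in PIP (-0.87 ± 0.08). EPHB6 fell as well, by 1.20 ± 0.13 in NSB and by 0.73 ± 0.13 in PIP on the log2 scale. The third Eph receptor that fell in PIP was EPHA8 (-0.28 ± 0.10), which was detected on no PIP array of day 11.

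Of the 7 ephrins, 4 rose in NSB and 5 in PIP, each by at least 1, and 0 fell. EFNB2, a ligand of EPHB4 and EPHA4, read 9.69, 9.79 and 9.66 at day 3, 11.62, 11.59 and 11.28 in NSB and 11.83, 11.90 and 11.86 in PIP (1.78 ± 0.08 and 2.15 ± 0.08). EFNB1 read 6.45, 6.56 and 6.55 at day 3, 8.90, 9.03 and 9.28 in NSB and 8.32, 8.13 and 7.88 in PIP (2.55 ± 0.10 and 1.59 ± 0.10). In both arms all arrays were above day 3. EFNA2, measured by a probe to an expressed sequence tag, read 7.14, 7.34 and 7.01 at day 3, 9.81, 9.52 and 9.49 in NSB and 9.27, 9.53 and 9.40 in PIP (2.45 ± 0.12 and 2.24 ± 0.12), while its other probe was detected on 0 arrays. EFNB3 rose by 1.26 ± 0.08 in NSB and 1.05 ± 0.08 in PIP. EFNA1 rose in PIP (2.11 ± 0.12, 4.33-fold), from 6.74, 6.93 and 6.81 to 8.91, 9.02 and 8.90, and its NSB arrays of 6.90, 6.84 and 6.37 overlapped day 3 (-0.12 ± 0.12).

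ROBO1, ROBO2 and SLIT2 rose in both arms, after ROBO1 (-0.50 ± 0.11) and SLIT2 (-0.52 ± 0.12) had fallen from day 1 to day 3. SLIT2 read 6.67, 6.22 and 6.33 at day 1, which overlapped its NSB arrays of day 11. ROBO1 read 7.25, 7.15 and 7.16 at day 3, 9.30, 9.12 and 9.39 in NSB and 8.94, 8.92 and 8.81 in PIP (2.08 ± 0.11 and 1.70 ± 0.11). Its other probes were detected on 0 arrays. SLIT2, a secreted ligand of ROBO1 and ROBO2, read 5.87, 5.90 and 5.89 at day 3, 6.72, 6.92 and 6.62 in NSB and 7.96, 8.27 and 8.29 in PIP, 1.83-fold (0.87 ± 0.12) and 4.88-fold (2.29 ± 0.12) higher. Arrays of day 3 lay below those of day 11 in each arm for both genes. ROBO2 was detected on no day 3 array (4.88, 5.08 and 5.04) and read 6.26, 6.70 and 6.66 in PIP, at least 2.65-fold higher (1.54 ± 0.12), and 5.57, 5.26 and 5.55 in NSB (0.46 ± 0.12). ROBO3 rose in NSB (0.46 ± 0.11) and did not pass the test in PIP (0.09 ± 0.11). SLIT3 did not pass in either arm (-0.28 ± 0.15 in NSB and 0.30 ± 0.15 in PIP).

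NTN1 and NTNG2 fell in each arm. NTNG1 was called lower too, but it passed the filter only through its day 3 arrays, so the filter favoured this direction. NTN1 went from 6.78, 6.76 and 6.71 at day 3 to 5.09, 4.95 and 5.18 in NSB, where it was detected on no array (at least 2.82-fold lower, -1.68 ± 0.09), and to 5.89, 5.97 and 5.88 in PIP (-0.84 ± 0.09). Of the 4 receptors, 3 fell in each arm and NEO1 rose. UNC5B fell from 6.68, 6.48 and 6.69 to 5.02, 5.03 and 4.94 in NSB, on no array above the detection limit (at least 2.57-fold lower), and to 5.23, 5.23 and 4.85 in PIP (-1.51 ± 0.13). UNC5A fell from 9.51, 9.51 and 9.49 to 8.77, 8.72 and 8.88 in NSB (-0.71 ± 0.12) and to 8.27, 7.62 and 7.61 in PIP (-1.67 ± 0.12), and stayed above its day 1 arrays in both. UNC5D, which belongs to the same receptor family, fell from 6.93, 7.15 and 7.11 to 5.82, 5.74 and 5.12 in NSB (-1.51 ± 0.16). In PIP it read 6.39, 6.54 and 6.81 (-0.49 ± 0.16). NTNG1 was detected on the day 3 arrays and on no other array of the series.

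Semaphorins moved both ways, with 4 of 12 higher and 5 lower in each arm. One of the higher genes, SEMA4F, rose by its tested probe (0.78 ± 0.11 in NSB and 0.60 ± 0.11 in PIP). Its other probe, detected on 8 arrays, gave -0.03 ± 0.12 and -0.04 ± 0.12. SEMA5A rose from 5.15, 5.09 and 5.25 to 7.36, 7.33 and 7.18 in NSB (2.13 ± 0.15) and to 6.47, 7.28 and 7.08 in PIP (1.78 ± 0.15), and its other probe gave 0.89 ± 0.15 and 1.18 ± 0.15. SEMA6C rose from 6.23, 6.04 and 6.17 to 7.95, 7.92 and 7.94 in NSB (1.79 ± 0.12) and to 6.92, 7.12 and 7.05 in PIP (0.88 ± 0.12). Their day 11 arrays were all above day 3. SEMA4A, a transmembrane semaphorin, fell from 8.13, 8.15 and 8.21 to 6.60, 6.28 and 7.07 in NSB (-1.52 ± 0.14) and to 5.89, 6.19 and 5.92 in PIP (-2.16 ± 0.14). SEMA5B fell from 9.14, 9.19 and 9.29 to 8.45, 8.30 and 8.66 in NSB (-0.74 ± 0.11) and to 7.62, 7.61 and 7.54 in PIP (-1.61 ± 0.11). SEMA6A fell by 1.19 ± 0.10 in NSB and 1.15 ± 0.10 in PIP on the log2 scale. Of the plexins, 4 of 7 rose in NSB and 2 in PIP, all by less than 1, and 0 fell. With arrays scaled to the median of all probes instead of quantiles, the median of all genes moved to -0.43 in NSB, and 48.5% instead of 64.9% of the called genes of these families were higher there.

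**Figure D3:**
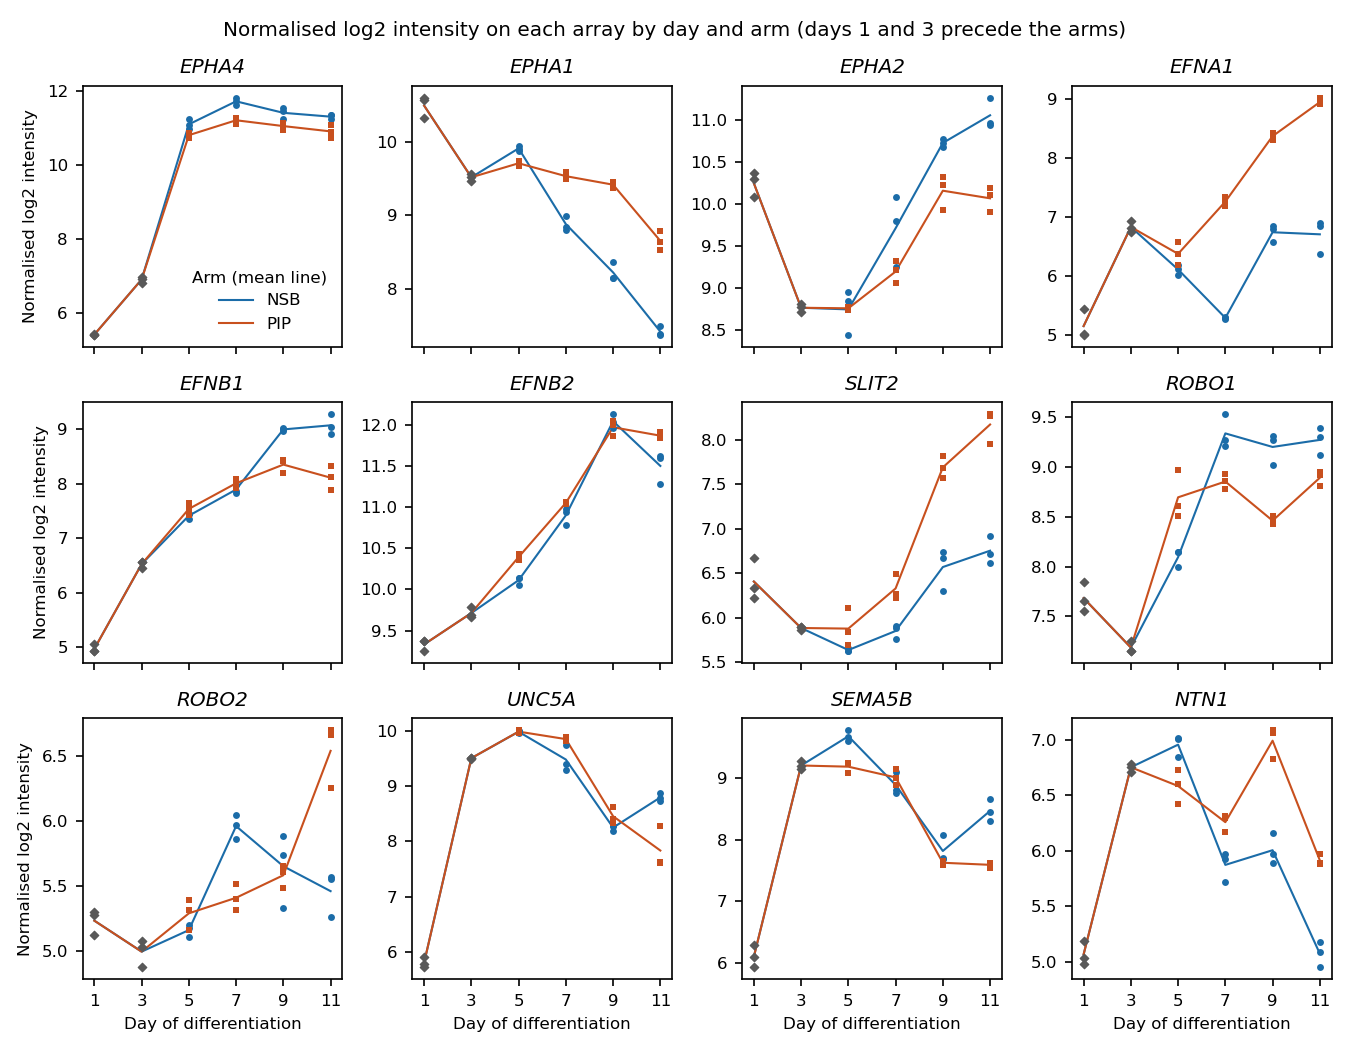
Normalised log2 intensity on each array (symbols) and group means (lines) of 12 genes against the day of differentiation; grey diamonds are days 1 and 3, blue circles NSB and orange squares PIP, with 3 arrays per group and a separate vertical scale for each gene. EFNA1, SLIT2 and EPHA1 part between the arms after day 5, with PIP above NSB.

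The arms differed little at day 5 and most at day 11. At day 11, PIP was set apart from NSB by more EFNA1, SLIT2, EPHA1, ROBO2 and UNC5D, each by at least 1 on the log2 scale, and by less EPHA2, EFNB1, UNC5A, SEMA6C and SEMA5B. Of the 51 genes, 10 were higher and 17 lower in PIP, or 52.9%, against 25.5% of all genes tested (14.2% higher and 11.4% lower). By at least 1, the share was 9.80%, against 3.2% of all genes in either direction and 2.38% higher. The median difference was -0.12 over these genes and 0.00 over all. With scaling to the median of all probes, the median of all genes moved to 0.28 and 68.4% of the called genes of these families, instead of 37%, were higher in PIP.

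The promoters of 4 of the 5 genes that were higher in PIP by at least 1 are printed below, to show the sequence around the starts of the genes that part the arms. They come from the RefSeq table of GRCh38.p14, each ends 50 bases past the annotated start of the gene and is written 5′ to 3′ on the gene's own strand, and capitals mark GGGCGG or its reverse complement, the GC box. The capitals were chosen after the sequences were seen, and a match is a description of letters, not of binding.
EFNA1, chr1:155127626-155127925, plus strand: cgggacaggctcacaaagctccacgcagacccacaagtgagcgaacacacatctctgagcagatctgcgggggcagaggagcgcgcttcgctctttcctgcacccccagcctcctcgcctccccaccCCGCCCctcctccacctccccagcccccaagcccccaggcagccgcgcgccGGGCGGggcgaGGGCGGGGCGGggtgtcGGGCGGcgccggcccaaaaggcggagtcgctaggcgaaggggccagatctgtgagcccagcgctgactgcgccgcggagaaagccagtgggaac
SLIT2, chr4:20251655-20251954, plus strand: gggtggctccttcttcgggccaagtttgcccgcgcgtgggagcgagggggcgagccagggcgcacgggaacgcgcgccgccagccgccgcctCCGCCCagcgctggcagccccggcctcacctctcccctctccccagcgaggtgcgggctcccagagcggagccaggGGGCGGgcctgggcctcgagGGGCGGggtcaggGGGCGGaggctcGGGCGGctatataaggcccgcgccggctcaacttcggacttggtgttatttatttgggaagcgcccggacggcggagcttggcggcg
EPHA1, chr7:143408807-143409106, minus strand: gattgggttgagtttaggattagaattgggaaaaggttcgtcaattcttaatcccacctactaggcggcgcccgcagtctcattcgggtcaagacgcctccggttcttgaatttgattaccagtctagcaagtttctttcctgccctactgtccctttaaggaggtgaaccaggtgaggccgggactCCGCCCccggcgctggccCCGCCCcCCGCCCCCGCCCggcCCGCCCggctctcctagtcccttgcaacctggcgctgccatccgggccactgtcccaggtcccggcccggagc
ROBO2, chr3:76310630-76310929, plus strand: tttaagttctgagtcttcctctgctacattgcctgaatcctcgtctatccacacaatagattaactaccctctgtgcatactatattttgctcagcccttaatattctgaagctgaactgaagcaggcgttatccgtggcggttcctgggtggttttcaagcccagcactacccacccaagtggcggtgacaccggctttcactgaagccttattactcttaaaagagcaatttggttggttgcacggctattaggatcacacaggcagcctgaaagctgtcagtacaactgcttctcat
EFNA1, SLIT2 and EPHA1 hold 5 GC boxes each, with overlapping matches counted, and ROBO2 holds 0. Of the 66 genes 56 had a promoter in the table, and 43 of these 56 (76.8%) held a GC box on either strand, against 45% of all 35116 promoters of that length, which include those of non-coding genes. GCCNNNGGC, the motif of the TFAP2 factors, lay in 20 of 56 (35.7%), against 23.2% of all, and of the 4 printed promoters only that of EPHA1 held it. The octamer ATTTGCAT lay in 0 of 56 and in 1.77% of all. These motifs can overlap one another, and their part in the levels was not tested.

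EFNA1 read 6.90, 6.84 and 6.37 in NSB and 8.91, 9.02 and 8.90 in PIP at day 11, 4.72-fold higher in PIP (2.24 ± 0.12, adjusted p = 1.26e-14). SLIT2 read 6.72, 6.92 and 6.62 in NSB and 7.96, 8.27 and 8.29 in PIP, 2.67-fold higher (1.42 ± 0.12, adjusted p = 4.44e-10). EPHA1 read 7.37, 7.50 and 7.38 in NSB and 8.64, 8.53 and 8.78 in PIP, 2.36-fold higher (1.24 ± 0.08). For all 3 genes the lowest PIP array was above the highest NSB array. ROBO2 read 5.57, 5.26 and 5.55 in NSB and 6.26, 6.70 and 6.66 in PIP, 2.11-fold higher (1.08 ± 0.12). UNC5D read 5.82, 5.74 and 5.12 in NSB and 6.39, 6.54 and 6.81 in PIP, 2.03-fold higher (1.02 ± 0.16). Both were higher in PIP without overlap. NTN1, on no NSB array above the detection limit, was at least 1.58-fold higher in PIP (0.84 ± 0.09), SEMA6D 1.59-fold (0.67 ± 0.12) and SLIT3 1.49-fold (0.58 ± 0.15). The SLIT3 call was lost without the third NSB array (0.34), with scaling on detected probes (0.23), and when only the arrays of day 11 were fitted (0.58).

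In the other direction EPHA2, the receptor of EFNA1, read 11.27, 10.97 and 10.94 in NSB and 10.20, 10.11 and 9.90 in PIP, 1.99-fold lower in PIP (-0.99 ± 0.15, adjusted p = 7.93e-06). EFNB1 was 1.95-fold lower (-0.96 ± 0.10), UNC5A 1.95-fold (-0.96 ± 0.12), SEMA6C 1.87-fold (-0.90 ± 0.12), SEMA5B 1.84-fold (-0.88 ± 0.11), EPHB1 1.65-fold (-0.72 ± 0.12) and SEMA4A 1.57-fold (-0.65 ± 0.14). Scaling on all probes ended the calls of EPHB1 (-0.32) and SEMA4A (-0.33). None of these groups overlapped. ROBO1 was lower in PIP (-0.38 ± 0.11) while ROBO2 was higher. EPHA4 was lower by 0.40 ± 0.09 in PIP. Of the 7 plexins, 3 were called lower in PIP (PLXNB2, PLXNA3 and PLXND1) and 0 higher, but these calls have limits. The other PLXNB2 probe gave -0.07 ± 0.10 against -0.51 ± 0.09 for the tested one. PLXNA3 passed narrowly (-0.40 ± 0.14, adjusted p = 0.0377). PLXND1 (-0.44 ± 0.15) was near the detection limit, with means of 5.08 in PIP and 5.52 in NSB, and was detected on 1 PIP array. SEMA5A did not pass the test, and its 2 probes gave -0.35 ± 0.15 and 0.29 ± 0.15.

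Markers of several cell types moved with these differences. In PIP against NSB at day 11, 7 of 7 markers of non-neural ectoderm and placode were higher, with summed background-corrected intensities of 310 to 695 in NSB and 5380 to 6407 in PIP, and 2 of the 7 were detected on no NSB array. All sums in this paragraph were taken before quantile normalisation, so they carry differences in brightness between arrays. Of 6 neuronal markers tested 2 were higher, ISL1 at least 20.4-fold and POU4F1 11.1-fold. Another 2 were lower, each by less than 1 on the log2 scale, and the median over the 6 was -0.12, so the list had no common direction. Sums over 8 neuronal markers were 555 to 1008 in NSB and 1933 to 2431 in PIP. Neural crest markers were higher for 4 of 5 (139 to 257 against 948 to 1373) and trophoblast and amnion markers for 3 of 4 (29.3 to 101 against 1055 to 1510, with 2 of 4 detected on no NSB array). Of 7 mesenchyme markers 2 were higher and 2 lower (958 to 1897 against 1647 to 2112 over 8 markers), of 7 neural ectoderm markers 1 was higher and 4 lower (13900 to 21510 against 16450 to 19280), and of 6 pluripotency markers 1 was higher and 2 lower. Of 5 endothelium and blood markers 1 was lower and 0 were higher (226 to 306 against 156 to 217 over 9 markers), and 5 of the 9 were detected on no NSB array and 6 on no PIP array. The part of these cell types in the levels of EFNA1, SLIT2, EPHA1 and the other genes was not tested.

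**Figure D4:**
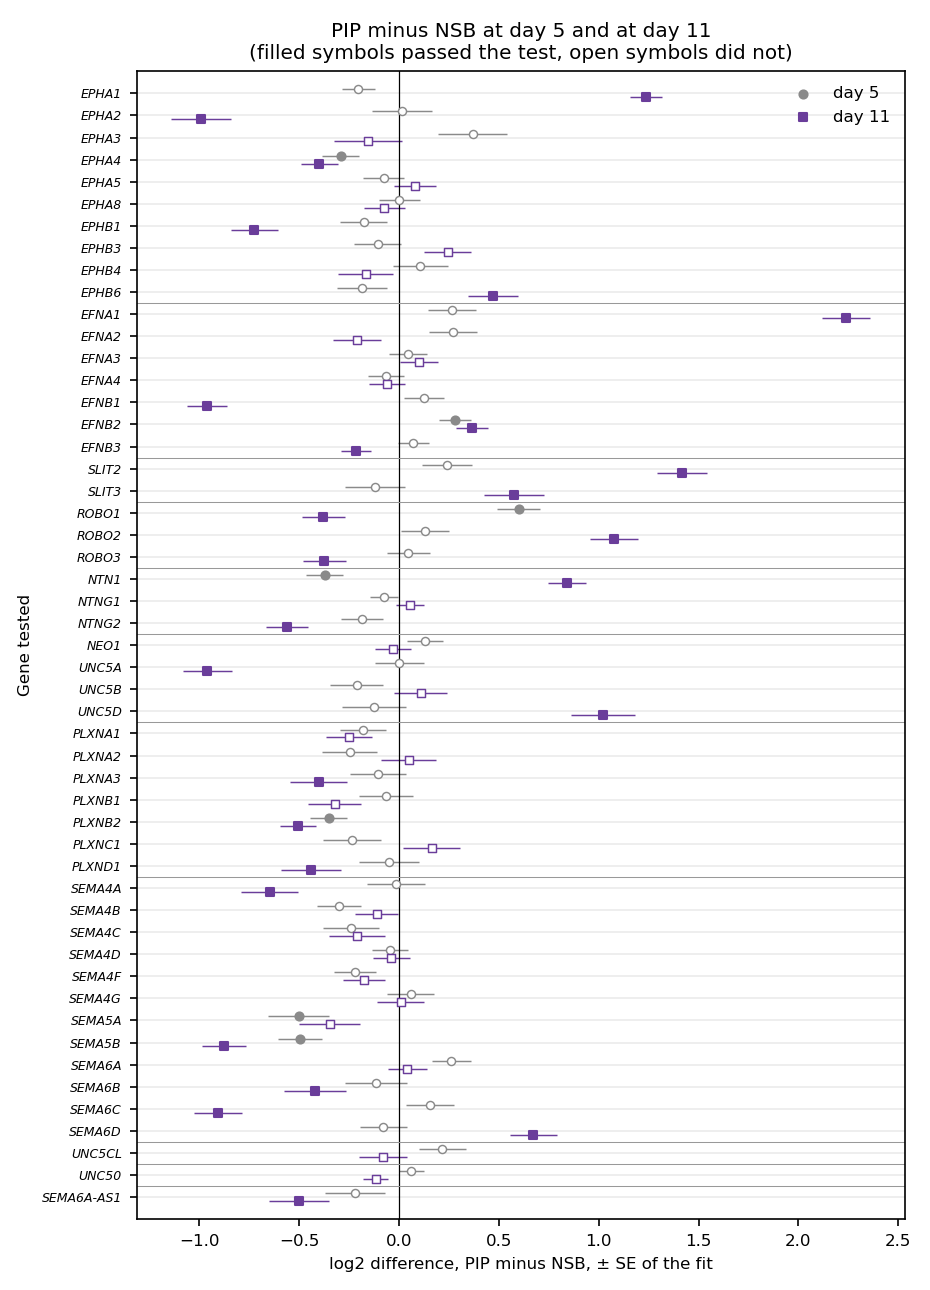
Log2 difference ± SE of the fit, PIP minus NSB, for each tested gene at day 5 (grey) and day 11 (purple), 3 arrays per group; filled symbols passed the test at an adjusted p under 0.05. At day 5 no gene reaches 1 in either direction, and at day 11 EFNA1 lies farthest right at 2.24.

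At day 5, 2 genes were higher in PIP (ROBO1, 0.60 ± 0.11, and EFNB2, 0.28 ± 0.08) and 5 lower (SEMA5A, SEMA5B, NTN1, PLXNB2 and EPHA4, with SEMA5A at -0.50 ± 0.15), or 13.7%, against 11.5% of all genes. None reached 1 on the log2 scale, as against 0.334% of all genes. The count of 7 fell to 3 without the third NSB array of day 5 or the second PIP array, and to 4 without the first PIP array. SEMA5A lost its call with no background correction (-0.31), with scaling on detected probes (-0.45), in the deposited processed values (-0.51) and without any one of 4 of the 6 arrays (-0.49 to -0.42). Of the 7 called, 28.6% were higher, but 0% of those called with scaling on all probes and 57.1% on detected probes.

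At day 7, 9 genes were higher and 5 lower in PIP, or 27.5%, against 12.4% of all genes, and 64.3% of the called were higher (76.9% with scaling on all probes). By at least 1 it was 3.92% (2 genes), against 1.08%. EFNA1 read 5.29, 5.28 and 5.30 in NSB and 7.18, 7.33 and 7.27 in PIP, 3.92-fold higher (1.97 ± 0.12), and EPHB3 read 5.44, 5.00 and 5.27 in NSB and 6.25, 6.29 and 6.26 in PIP, 2.04-fold higher (1.03 ± 0.12). Neither overlapped. NSB was at its lowest EFNA1 after day 3 here. ROBO2 was lower in PIP at day 7 (-0.55 ± 0.12) and higher at day 11 (1.08 ± 0.12). The NSB arrays of day 7 varied most, with a median standard deviation of 0.151, against 0.071 to 0.129 in the other groups. The SE of the fit is shared by all groups and does not show this. EPHB4, called higher in PIP, read 8.16, 7.27 and 7.95 in NSB, and UNC5A passed narrowly (0.37 ± 0.12, adjusted p = 0.044). Without 1 array at a time, 10 to 18 genes were called. EPHA2 overlapped between the arms at day 7 (NSB 10.09, 9.25 and 9.80, PIP 9.06, 9.32 and 9.21; -0.52 ± 0.15, adjusted p = 0.0207), and lost its call without any one of 4 of the 6 arrays (-0.52 to -0.33), with scaling on all probes (-0.39), with array weights and when only the arrays of day 7 were fitted (both -0.52).

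At day 9, 7 genes were higher and 11 lower in PIP, or 35.3%, against 20.8% of all genes, and by at least 1 it was 7.84%, against 2.45%. EFNA1 read 6.57, 6.80 and 6.85 in NSB and 8.43, 8.30 and 8.37 in PIP, 3.09-fold higher. EPHA1 read 8.15, 8.37 and 8.15 in NSB and 9.37, 9.42 and 9.45 in PIP, 2.29-fold higher, and SLIT2 read 6.30, 6.67 and 6.74 in NSB and 7.82, 7.57 and 7.68 in PIP, 2.17-fold higher. All 3 were without overlap. SEMA5A read 6.81, 6.36 and 6.77 in NSB and 5.49, 5.47 and 5.26 in PIP, 2.36-fold lower (-1.24 ± 0.15), and its other probe gave -0.98 ± 0.15.

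Averaged over the 4 days, 10 genes were higher and 15 lower in PIP, or 49.0%, against 31.4% of all genes, and without day 9 the counts were 10 and 11. Only EFNA1 reached 1, as did 1.02% of all genes. EFNA1 was higher by 1.52 ± 0.06 (1.49 without day 9), SLIT2 by 0.81 ± 0.06 (0.71), and EPHA1 by 0.72 ± 0.04 (0.56). EPHA2 was lower by 0.52 ± 0.07 (-0.50 without day 9). SEMA5A moved most when day 9 was left out, from -0.52 ± 0.08 to -0.28.

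The widening of the arms between day 5 and day 11 was tested as a change of the difference. Of the 51 genes, 9 moved toward PIP and 8 toward NSB, or 33.3%, against 19.9% of all genes, and 8 by at least 1, as did 3.35% of all genes. EFNA1 (1.97 ± 0.17), EPHA1 (1.44 ± 0.11), NTN1 (1.21 ± 0.13), SLIT2 (1.18 ± 0.18) and UNC5D (1.15 ± 0.23) moved toward PIP by at least 1. EFNB1 (-1.09 ± 0.14), SEMA6C (-1.06 ± 0.17) and EPHA2 (-1.0 ± 0.21) moved toward NSB. ROBO1 and ROBO2, which bind the same Slits, moved in opposite directions (-0.98 ± 0.15 and 0.95 ± 0.17), though scaling on all probes ended the call of ROBO1 (-0.40) and that of EPHA2 (-0.38), and scaling on detected probes that of ROBO2 (0.52). Of the called genes 52.9% moved toward PIP, but 90.5% with scaling on all probes and 30% on detected probes. NTN1 crossed over with a call on both days, being lower in PIP at day 5 (-0.37) and higher at day 11 (0.84). ROBO1 crossed the other way (0.60 at day 5 and -0.38 at day 11). EPHA1 did not pass the test at day 5 (-0.20) and was higher in PIP at day 11. The 7 plexins did not pass this test.

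Day 9 itself was also compared with its neighbours. Over both arms 15 of the 51 genes were higher and 19 lower at day 9 than the mean of days 7 and 11, or 66.7%, against 60.2% of all genes, and 2 by at least 1, as did 3.71% of all genes. PLXNA2, a plexin that pairs with neuropilins, read 6.50, 6.37 and 6.35 in NSB and 6.50, 6.57 and 6.72 in PIP at day 9 and at most 5.39 in either arm at days 7 and 11 (1.33 ± 0.08). Its other probe was detected on 1 array. ROBO3, a divergent Robo receptor known from commissural axons, read 6.93, 6.71 and 6.65 in NSB and 7.00, 6.72 and 6.87 in PIP at day 9 and at least 7.59 at days 7 and 11 (-1.26 ± 0.07). No array of day 9 overlapped those of days 7 and 11 for either gene. Of the called genes 44.1% were higher at day 9, but 60.7% with scaling on all probes. The day and the handling of these arrays cannot be told apart.

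The level was highest at day 11 for 20 of the 51 genes in NSB and for 15 in PIP, counting days 1 and 3 in both arms. Day 1 was highest for 6 and 7 of them, and day 3 for 7 and 10. The remaining genes peaked between days 5 and 9, 18 in NSB and 19 in PIP. Peak days were not counted over all genes, so these counts cannot be read as a trait of the families. They include genes near background whose means hardly moved, such as EPHA5, with a range of 0.127.

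Other genes of these pathways were followed in 2 lists. Among 29 tested co-receptors, other ligands and proteases, 11 rose and 9 fell in NSB from day 3 to day 11 (69%, against 66% of all genes), and 13 rose and 5 fell in PIP (62.1%, against 62.4%), shares close to those of all genes. FLRT3, a membrane protein that binds ROBO1 and UNC5 receptors, rose 11.7-fold in NSB and 28.1-fold in PIP and was 2.40-fold higher in PIP at day 11 (1.26 ± 0.09). FLRT2 rose by 2.46 ± 0.09 and 2.62 ± 0.09. In PIP against NSB at day 11, 11 of the 29 were higher and 5 lower (55.2%, against 25.5% of all genes). The class 3 semaphorin SEMA3C was at least 7.51-fold and the semaphorin co-receptor NRP2 at least 5.01-fold higher in PIP there, both detected on no NSB array of that day. LRRC4C, a partner of netrin-G proteins, was 1.70-fold lower (-0.77 ± 0.12) and DRAXIN, a guidance ligand of DCC, 1.69-fold lower.

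Among 46 tested intracellular partners and effectors, 14 rose and 10 fell in NSB from day 3 to day 11 and 13 rose and 11 fell in PIP. The share called was 52.2% in each arm, below the 66% and 62.4% of all genes. RRAS, a small GTPase that plexins inactivate, rose by 1.74 ± 0.10 in NSB and 1.05 ± 0.10 in PIP, and ROCK1, a kinase that acts downstream of RhoA, by 1.29 ± 0.16 in each. In PIP against NSB at day 11, 6 were higher and 10 lower (34.8%, against 25.5% of all genes). VAV3, a guanine exchange factor that acts downstream of Eph receptors, was 2.96-fold higher (1.56 ± 0.11), RAC1 at least 1.65-fold higher (1.07 ± 0.13), and RRAS 1.62-fold lower (-0.69 ± 0.10). The RAC1 probe was detected on no NSB array of day 11. From day 1 to day 3, 18 rose and 10 fell (60.9%, against 54.4% of all genes), with EVL, an actin regulator, 2.34-fold higher and ROCK1 2.55-fold lower, while of the 29 co-receptors and other ligands 7 rose, led by NRP2 (2.20 ± 0.13), and 7 fell (48.3%), with SEMA3A 4.23-fold lower. Over these 2 lists the medians in PIP against NSB at day 11 were 0.12 and -0.03, beside 0.00 over all genes.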

How the data were processed

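Total RNA of H9 cells was measured on 30 arrays, 3 in each of 10 groups read from the sample titles. The deposited unnormalised table holds, per the file headers, the bead intensity, bead count, bead standard error and detection p-value of each probe on each array. The authors used GenomeStudio, version not stated, per the submitters' processing notes. The array is called HT-12 in the design text, whereas the probe annotation is of an earlier type. The deposited processed values are intensity on a linear scale and were used as an alternative.

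Intensities were background-corrected (normexp on detection p-values), raised by 16, quantile normalised and put on the log2 scale from the deposited intensity (limma 3.58.1, R 4.3.3). Of 48701 probes, 24979 had no gene name and 35 several. A probe was kept if 3 or more arrays had its detection p-value under 0.05, and each of 13488 genes took its brightest probe. A model with 10 group means was fitted over all arrays with empirical Bayes moderation (20 residual and 6.95 prior degrees of freedom), and tested 2-sided. The test was checked on simulated data. Replicate numbers were not taken as pairs: residuals of same-numbered arrays correlated at -0.009 and of others at 0.005. The number of arrays limits the precision, the offset shrinks folds of dim probes, and bead counts (median 37 to 40 per probe) measure only technical error.

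The genes and lists were chosen with earlier results of these data known. All genes of the families could be named, with values on each array for those that differed by 1 or more, up to 12 per comparison, and from the pathway lists up to 4 per direction and comparison. Marker lists were pluripotency, neural ectoderm, non-neural ectoderm and placode, neurons, endothelium and blood, mesenchyme, neural crest, and trophoblast and amnion. Alternatives changed background correction, offset, scaling, filter, probe choice, arrays fitted, weights and replicates.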

Additional observations from a re-analysis of the deposited data

Results flagged for a closer look

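For 8 genes the difference between the arms changed from day 5 to day 11 by at least 1 on the log2 scale, by a test of that change in limma. EFNA1 changed by 1.97 ± 0.17 toward PIP (adjusted p = 8.49e-10), from 0.26 at day 5 to 2.24 at day 11. EPHA1 changed by 1.44 ± 0.11 (adjusted p = 1.89e-10), from -0.20 to 1.24, NTN1 by 1.21 ± 0.13 (adjusted p = 8.03e-08), from -0.37 to 0.84, SLIT2 by 1.18 ± 0.18 (adjusted p = 1.25e-05), from 0.24 to 1.42, and UNC5D by 1.15 ± 0.23 (adjusted p = 0.000473), from -0.13 to 1.02. Toward NSB, EFNB1 changed by -1.09 ± 0.14 (adjusted p = 1.1e-06), from 0.13 to -0.96, SEMA6C by -1.06 ± 0.17 (adjusted p = 3.4e-05), from 0.16 to -0.90, and EPHA2 by -1.0 ± 0.21 (adjusted p = 0.000987), from 0.01 to -0.99. All 3 PIP arrays lay on the same side of all 3 NSB arrays at day 11 for these 8 genes. The genes were chosen by differences on the same arrays, so this is no separate support. With 3 arrays per group, no array was tested as standing apart from its group.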

How the results depend on the processing

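Recomputed one by one were 156 called differences of single genes, those past a size cut-off that lay below 1 on the log2 scale. Smaller called differences were not followed singly, so the counts of kept and lost calls do not cover them. For the 156, 2948 of 2999 recomputations kept direction and call, 48 kept direction and lost the call, and 3 reversed. All 3 reversals came under scaling to the median of all probes, where EPHB1 gave 0.036 for the change of the arms, and PLXNB1 -0.076 and UNC50 -0.19 for NSB day 11 against day 3. That scaling moved the median of all genes by 0.20 from day 1 to day 3, by -0.43 in NSB and -0.16 in PIP to day 11, by -0.15 between the arms at day 5, 0.28 at day 11 and 0.45 for their change, scaling on detected probes by -0.17 from day 1 to day 3 and by 0.20 in NSB, and the cause was not tested. Under all probes the change of EPHA2 was -0.38 and lost its call, and 37 intracellular partners were called in NSB to day 11. Requiring at least 1 on the log2 scale left 10 genes for day 3 against day 1, 20 in NSB and 19 in PIP to day 11, 0, 2, 4 and 5 between the arms at days 5, 7, 9 and 11, 1 averaged, 8 for the change and 2 for day 9. Array weights gave 11 at day 5 and a fit of the compared groups alone 9 at day 7. Leaving out 1 array at a time gave 32 to 35, 34 to 37 and 35 to 37 genes over days, 3 to 7, 10 to 18, 15 to 19 and 19 to 26 between the arms at days 5, 7, 9 and 11, 22 to 26 averaged, 14 to 19 for the change and 31 to 35 for day 9, and in the order day 3, NSB, PIP, arms 13 to 16, 19 to 21, 18 to 18 and 13 to 15 co-receptors and 25 to 26, 22 to 25, 22 to 27 and 11 to 17 intracellular partners. Replicate numbers were not taken as pairs. Residuals of same-numbered arrays correlated at -0.009 on average, with a lowest value of -0.309, which cannot exclude pairing within some groups. A replicate block gave 26 genes at day 11, 17 at day 9, 17 for the change and 37 in each arm to day 11. None of the 156 differences of single genes lost its call under it. Dim probes limit the folds given as lower bounds.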

Other observations

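Among the genes whose group means lay within 1 on the log2 scale over the 10 groups were NEO1, PLXNA1 and EPHA3. NEO1, the receptor of netrins and of repulsive guidance molecules, had group means between 9.59 and 10.08, and PLXNA1 between 9.06 and 9.71, although NEO1 rose from day 3 to day 11 in both arms and PLXNA1 from day 1 to day 3. EPHA3 ranged from 5.66 to 6.15. EFNA3 ranged from 5.10 to 5.32, near the detection limit of 5.12 to 5.28, and was detected on 15 of 30 arrays, so its levels are largely not told from background.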
